A study of Rattus norvegicus with 11 samples.

Results

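Adenosine signalling genes were examined in ventricular tissue of the rat strain Fischer-344, which is inbred and much used to study ageing. The rule took every probe set whose platform gene symbol was Adora1, Adora2a, Adora2b, Adora3, Adk or Nt5e, dim ones included. It found 7 of the 8799 probe sets in the table, for 5 of the 6 genes: 1 each for Adora1, Adora2a, Adora2b and Adk, and 3 for Adora3. No probe set carried the symbol Nt5e in the annotation, so that gene is not analysed here. Total RNA from ventricle was hybridised to 11 arrays, 6 in an old group aged 22 months and 5 in a young group aged 4 months. No treatment, genotype or sex is given in the labels, and both groups share strain and tissue. Whether the arrays stand for separate animals is not stated, so p-values cover the scatter between these hybridisations, part of which may be technical. The single comparison, old against young, asked which ventricular transcripts differ with age.

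Adenosine is formed when ATP is broken down, and its level in heart tissue rises when oxygen supply falls short of demand. It acts through G protein-coupled receptors. The A1 and A3 receptors (Adora1, Adora3) couple mainly to inhibitory G proteins and lower cAMP, while the A2 receptors (Adora2a, Adora2b) couple to stimulatory G proteins and increase it. In heart, the A1 receptor slows the sinus node and the atrioventricular node and blunts the response to beta-adrenergic stimulation, and the A2a receptor widens coronary vessels. Nt5e, the ecto-5'-nucleotidase CD73, makes adenosine from AMP outside the cell, and Adk, adenosine kinase, returns adenosine to AMP inside it.

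Adora1 was the member whose deposited intensities separated by age: every old array read higher than every young one, with group means 2.73-fold apart. The same held for 29 of 5244 tested probe sets (0.553%). Taken relative to the background of each array, the Adora1 groups overlapped, as given below. Adora2a, the brightest of the Adora3 probe sets and Adk gave differences smaller than or close to their standard errors, the other Adora3 probe sets went opposite ways, and Adora2b was too dim on several arrays to be placed. None of the 7 probe sets passed an adjusted p of 0.05. Over the whole table limma called 0 of 5244 tested probe sets (0% called), with 394 (7.51%) at an unadjusted p under 0.05. An exact permutation test called 0 of 8740 (0%), and 5.95% of these had an unadjusted p under 0.05, as 1 of the 7 probe sets, that of Adora1, did. Differences below are old minus young on the log2 scale, after intensities under a floor of 47.4, the 20th percentile of all values, had been raised to it.

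The array's probe sequences are not in the sources used here. The receptor whose deposited intensities separated by age and the enzyme that clears adenosine are shown instead by bases before a transcript start. These are the 250 bases before the start that the promoter table uses, from RefSeq on assembly GRCr8. They read 5′ to 3′ on the gene's strand, with capitals marking the GC box GGGCGG on either strand. The windows are unlike: that of Adk lies just outside the annotated gene, while that of Adora1 lies inside the annotated gene, downstream of the gene's outermost start.
Adora1, chr13:48246832-48247081, minus strand: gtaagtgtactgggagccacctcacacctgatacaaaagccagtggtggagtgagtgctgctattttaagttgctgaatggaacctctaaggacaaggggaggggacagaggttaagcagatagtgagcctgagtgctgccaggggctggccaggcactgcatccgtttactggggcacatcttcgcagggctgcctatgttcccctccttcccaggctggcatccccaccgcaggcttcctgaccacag
Adk, chr15:3295746-3295995, minus strand: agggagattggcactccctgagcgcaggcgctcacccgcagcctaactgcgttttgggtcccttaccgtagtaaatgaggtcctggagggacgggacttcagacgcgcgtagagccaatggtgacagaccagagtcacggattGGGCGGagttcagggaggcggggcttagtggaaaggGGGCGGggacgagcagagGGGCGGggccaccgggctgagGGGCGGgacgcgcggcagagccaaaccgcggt
The Adora1 window held 0 GC boxes and was 56.8% G and C. The Adk window held 4 and was 66% G and C, and since the windows differ in position these values are no comparison of the genes' promoters. The promoter table held 5 of the 6 genes, all except Adora2a. Among the others, Adora2b had 4 GC boxes, Nt5e 3 and Adora3 0. Of 33469 promoter windows of the same length, 30.5% held the GC box, and their median G and C content was 51.2%. On either strand, the hypoxia response core ACGTG (in 16.6% of all windows), the cAMP response element TGACGTCA (1.59%) and the TATA box TATAAA (12.9%) had 0 matches in all 5 windows. The GATA core AGATAA (10.3%) had 1 match, in the Adora3 window, and 0 in the others. These are letter matches in 1 window per gene and say nothing of binding or of use in heart.

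**Figure D1:**
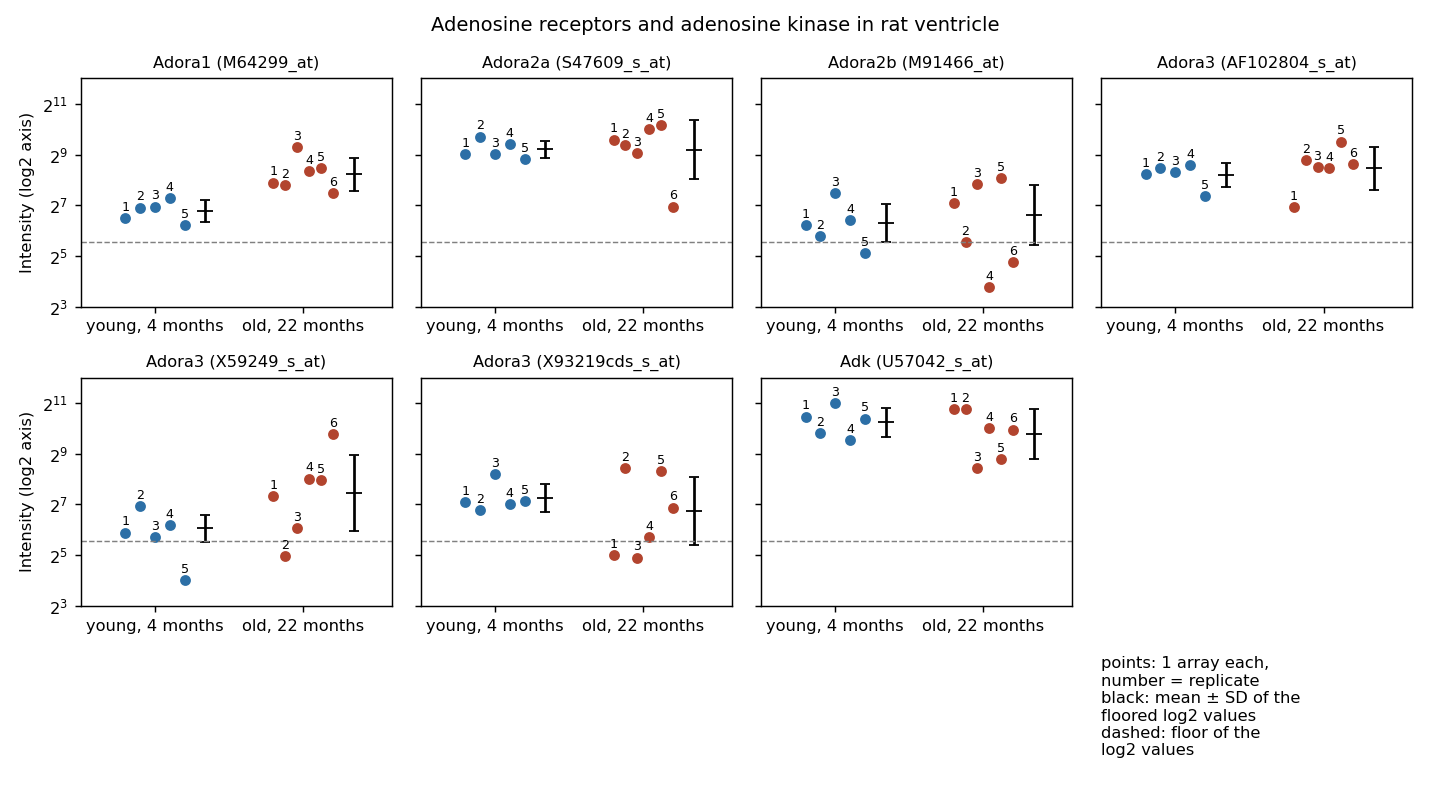
Intensity of each probe set (log2 axis) on each young (4 months, blue) and old (22 months, red) array, numbered by replicate, with the group mean ± SD of the floored log2 values in black and the floor of 47.4 dashed. For Adora1 the 5 young arrays sit between 73.9 and 155.9 and the 6 old arrays between 178.5 and 630.2, while the groups overlap in every other panel.

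Adora1, the A1 receptor, was read by the probe set M64299_at. The old arrays, replicates 1 to 6, gave intensities of 236.9, 222.3, 630.2, 325.7, 355.3 and 178.5. The young arrays, replicates 1 to 5, gave 90, 119.8, 123.5, 155.9 and 73.9. The groups did not overlap, although old replicate 6 and young replicate 4 lay close to each other, and old replicate 3 stood highest. On the log2 scale the mean was 8.21 ± 0.65 (SD, 6 arrays) for old and 6.77 ± 0.42 (SD, 5 arrays) for young. The difference was 1.45 ± 0.52 (SE), with a 95% interval of 0.36 to 2.53, and it did not pass (limma unadjusted p = 0.0116, adjusted p = 0.56 over 5244 probe sets). An exact two-sided permutation test over all splits of the arrays gave p = 0.00433, or 0.701 adjusted over 8740 probe sets. Adora1 ranked 93 of 5244 by limma p. Every old array lay above every young one for 29 tested probe sets, 0.553% of those tested, and an unadjusted p under 0.05 with a higher level in old was reached by 3.39% of tested probe sets, which is the background for the 1 of 4 tested receptor and Adk probe sets that did so.

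Against its own array, Adora1 lay below the median intensity on all 5 young arrays and above it on 5 of 6 old ones. Among the 8740 probe sets that are no controls, its percentile in young arrays was between 34.1 and 41.9, and in old arrays it was 41.1 in replicate 6 and between 53.9 and 79.5 in the others. On this scale old replicate 6 fell just below young replicate 4, so the groups overlapped there (exact permutation p = 0.00649, adjusted p = 0.764). In young arrays the intensity was 2.26 to 2.96 times the array's 20th percentile, a narrow band. In old arrays it was 2.56 times in replicate 6 and 4.7 to 14.5 times in the others. The log2 difference of this ratio was 1.21 (exact permutation p = 0.0108, adjusted p = 0.652).

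A further background measure comes from 8 control probe sets for yeast and mouse genes. Whether any of them picks up rat transcripts was not tested. Their geometric mean was 33.4, 33.1, 108, 53.8, 87.8 and 136 in old replicates 1 to 6, and 11.8, 31.4, 39.9, 109 and 16.2 in young replicates 1 to 5. The mean of the old arrays was higher, and the groups overlapped (exact permutation p = 0.13). Adora1 was above this mean on all 6 old and all 5 young arrays. It was above the brightest of the 8 controls on 5 of 6 old and 4 of 5 young arrays. As a ratio to these controls, the log2 difference of Adora1 was 0.35 (2.19 ± 0.93 in old, 1.84 ± 0.88 in young, SD; exact permutation p = 0.519). The controls read higher in old on average, so this ratio lowers the difference of every probe set by the same amount. On it Adora2a differed by -1.11, Adk by -1.55 and Adora3 (X59249_s_at) by 0.30. With the control level as a covariate in limma, an alternative chosen after seeing the data, the difference of Adora1 was 1.15 ± 0.57 (SE, unadjusted p = 0.0602, adjusted p = 0.783).

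**Figure D2:**
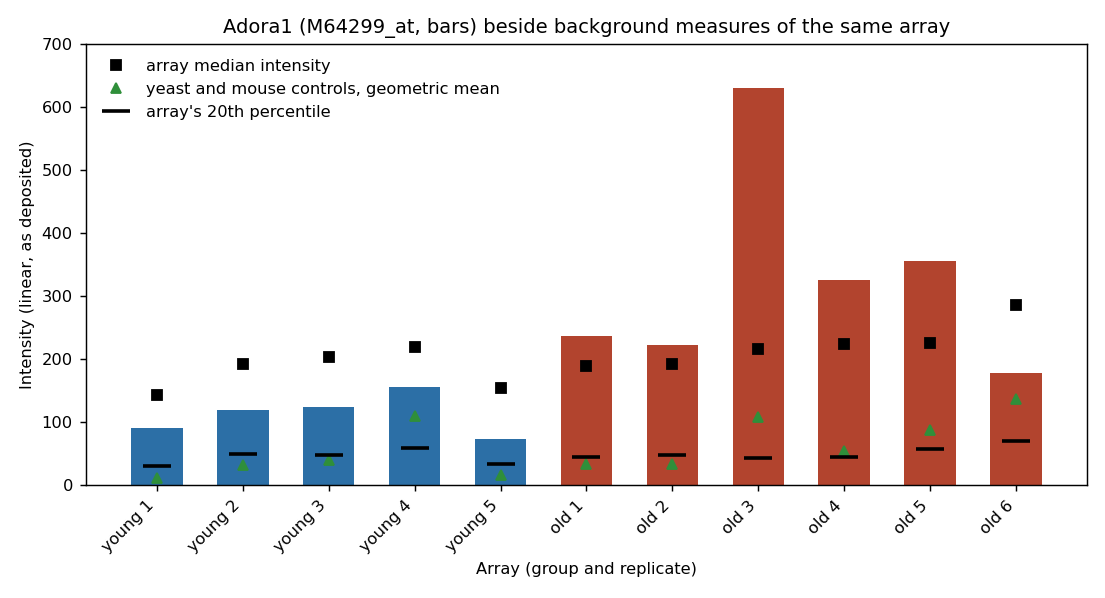
Adora1 intensity on each array (bars, linear scale as deposited) beside the same array's median intensity (squares), its 20th percentile (dashes) and the geometric mean of 8 yeast and mouse control probe sets (triangles). Adora1 is below the array median on all 5 young arrays and on old replicate 6, and above it on the other 5 old arrays.

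Array quality moved in part with the age groups. Bacterial spike-ins were bright on old replicates 3 to 6 and young replicate 4. The difference of Adora1 was 1.20 ± 0.59 (SE) within the 6 dim arrays and 1.12 ± 1.32 within the 5 bright ones, which hold 1 young array (limma unadjusted p = 0.0668 and 0.409). Old replicates 3 and 4 had log2 3' over 5' ratios of the GAPDH control of 3.39 and 4.09, against 0.77 or less elsewhere. Without them the difference was 1.14 ± 0.56 (SE, limma unadjusted p = 0.0568, adjusted p = 0.886). With arrays blocked by spike-in brightness Adora1 differed by 1.17 ± 0.57 (SE, limma unadjusted p = 0.0549). With the spike-in level as a covariate it differed by 1.27 ± 0.60 (SE, limma unadjusted p = 0.0497). Over 26 alternatives in all, Adora1 was higher in old in 26 and had an unadjusted limma p under 0.05 in 21. The other 5 were the dim arrays, the bright arrays, the spike-in block, the fit without high GAPDH ratios and the control covariate. All 26 refit the same arrays, many with 1 left out, so they are not independent.

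Markers of other tissue were read beside Adora1, since a piece of ventricle can hold atrial muscle, vessels, nerve, fat and blood, and atrial muscle carries A1 receptors. Of 4 atrial marker genes 3 were tested and all 3 were higher in old, by a median of 0.95. Their mean log2 level per array was 10.6 to 13.9 in old and 9.04 to 12.7 in young, so the groups overlapped. Of the 3 genes, 1 had a limma unadjusted p under 0.05, while Myl7 and Myl4 differed by 0.95 ± 0.82 and 0.83 ± 0.91 (SE). All 4 smooth muscle markers were higher in old, by a median of 1.05, with array means of 7.13 to 10.9 in old and 7.34 to 9.27 in young. Endothelial markers, also of vessels, were lower in 4 of 4 tested genes of 8, with a median of -0.66. All 3 tested nerve markers of 5 were higher in old, by a median of 0.25, with array means of 6.57 to 8.17 in old and 6.17 to 7.86 in young. Fat cell markers were higher in 3 of 4 tested genes of 5, by a median of 0.82, with array means of 8.54 to 10.3 in old and 8.43 to 9.24 in young. Among them was Cfd, the complement protease adipsin, at 1.69 ± 0.61 (SE, limma unadjusted p = 0.0121, adjusted p = 0.56). The lower one was Lep, at -0.39 ± 0.28 (SE). Both tested red cell markers of 4 were higher, Hbb, a beta globin, by 1.71 ± 0.93 (SE) and Alas2, which starts haem synthesis in red cell precursors, by 0.12 ± 0.71, with array means of 10.2 to 14.5 in old and 9.24 to 13.5 in young. Fibroblast markers were higher in 3 and lower in 3 of 6, with a median of -0.0051 and array means of 10.8 to 12 in old and 10.8 to 11.7 in young. Of these, Lum, the matrix proteoglycan lumican, differed by 1.19 ± 0.37 (SE, limma unadjusted p = 0.0043, adjusted p = 0.537). The 3 lower ones were collagen genes, Col3a1 at -0.91 ± 0.48, Col1a1 at -0.74 ± 0.49 and Col1a2 at -0.22 ± 0.34 (SE). None of these genes passed, and their part in the Adora1 result was not tested. Heart muscle markers were bright in both groups, with array means of 14.2 to 14.7 in old and 14.5 to 15 in young, as the labelled tissue has. In such bulk tissue fewer cells of a type and less RNA per cell cannot be told apart.

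Adora2a, the receptor through which adenosine relaxes coronary vessels, was read by S47609_s_at. The old arrays gave 770.1, 660.4, 535, 1014.5, 1151.5 and 123.6. The young arrays gave 520.6, 833.1, 521.4, 684.1 and 456.4. Apart from old replicate 6, which stood far below the rest, every array of both groups was between 456.4 and 1151.5. The signal was 10.8 times the array's 20th percentile or more on every array except old replicate 6, where it was 1.78 times. The mean was 9.19 ± 1.17 (SD, 6 arrays) for old and 9.20 ± 0.35 (SD, 5 arrays) for young. The difference of -0.013 ± 0.50 (SE) had a 95% interval of -1.06 to 1.03 (limma adjusted p = 0.996; exact permutation p = 0.991), which leaves room for a 2-fold difference either way. Without old replicate 6 it was 0.43 ± 0.35 (SE, limma unadjusted p = 0.228, adjusted p = 0.767). Endothelial markers, whose cells carry this receptor, were lower in old in 4 of 4 tested genes of 8, by a median of 0.66 on the log2 scale, and 0 passed. Their mean log2 level was 6.76 to 8.97 in old and 8.33 to 9.12 in young arrays. Smooth muscle markers, also of vessels, were higher in old in 4 of 4 genes, by a median of 1.05. The part of either list in the values of Adora2a was not tested.

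Adora2b, the low-affinity A2 receptor, was read by M91466_at and was too dim to be tested in the filtered fit. The old arrays gave 135.8, 47, 228.7, 13.6, 266.4 and 27, and the young arrays 74.4, 55.5, 177, 86 and 34.4. Above the floor of 47.4 lay 3 of 6 old and 4 of 5 young arrays, and the old arrays spread on both sides of the young ones. Its median percentile on the array was 30.8 in old and 28.3 in young. Above the brightest of the yeast and mouse controls it lay on 1 of 6 old and 2 of 5 young arrays. With floored values the means were 6.61 ± 1.19 (SD, 6 arrays) for old and 6.29 ± 0.74 (SD, 5 arrays) for young. The difference was 0.32 (exact permutation p = 0.608, adjusted p = 0.959). It depended on the floor, with 0.12 for a floor at the 10th percentile and -0.026 for a floor of 1. It also ran from 0.030 without old replicate 5 to 0.61 without young replicate 3, so no direction is given.

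Adora3, the A3 receptor, which in rodents is also known from mast cells, was read by 3 probe sets that went different ways. The annotation lists its symbol with a pair of gene numbers for each of them. The brightest, AF102804_s_at, gave 120.7, 437.2, 363.3, 351.2, 730.1 and 393.1 in old and 298.8, 352.1, 317, 382.1 and 165 in young. It lay above the floor on all 11 arrays, at a median percentile of 63.5 in old and 65.4 in young. Old replicate 1 read lowest of all 11 arrays and old replicate 5 highest, with the young arrays in between. Its difference of 0.28 ± 0.50 (SE) had a 95% interval of -0.77 to 1.32 (limma adjusted p = 0.907; exact permutation p = 0.522). It was 0.59 without old replicate 1, 0.066 without old replicate 5 and 0.071 without young replicate 5.

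The other Adora3 probe sets were dim and not tested in the filtered fit. X59249_s_at gave 161.8, 31.1, 67.7, 258.6, 249.6 and 865.9 in old and 59.3, 121.2, 52.3, 73.4 and 16.1 in young. It was higher in old by 1.40 with floored values (7.45 ± 1.51, SD, n = 6, against 6.06 ± 0.54, SD, n = 5), and the groups overlapped (exact permutation p = 0.0779, adjusted p = 0.832). Old replicate 6 stood highest, and without it the difference was 0.94. It was 0.43 among the dim arrays alone, 1.76 among the bright ones and 0.56 with the spike-in level as a covariate. Adora2a read lowest on this same array.

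X93219cds_s_at gave 31.8, 342.4, 29.9, 52.4, 314.8 and 117 in old and 136.3, 108.7, 292.2, 129 and 140.7 in young. It was lower in old by 0.50 with floored values (6.74 ± 1.35 against 7.24 ± 0.55, SD; exact permutation p = 0.452, adjusted p = 0.907). With 1 array left out the difference ran from -0.84 without old replicate 2 to -0.26 without young replicate 3. Across the 11 arrays, which the probe sets share, Pearson's r was 0.23 between AF102804_s_at and X59249_s_at, 0.49 between AF102804_s_at and X93219cds_s_at and -0.25 between the dim pair, as a description. The probe sets of this gene therefore gave no common direction. Mast cell markers had 2 tested genes of 9, Tpsab1 at 0.13 ± 0.49 (SE) and Tpsb2 at 0.26 ± 0.34, both mast cell tryptases. Their mean log2 level was 8.67 to 9.84 in old and 8.37 to 9.44 in young arrays. The others with a probe set, among them Cpa3, Mcpt1, Ms4a2 and Kit, had a median percentile of 38 or less.

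Adk, adenosine kinase, was read by U57042_s_at and was clearly above background on every array. The old arrays gave 1719.5, 1736, 344.6, 1036.4, 445.7 and 989.7, and the young arrays 1410.3, 905.7, 2029.2, 748.1 and 1331.8. The signal was at least 7.71 times the array's 20th percentile and brighter than all 8 yeast and mouse controls on 6 of 6 old and 5 of 5 young arrays. Old replicates 3 and 5 were lowest, and old replicates 1 and 2 lay among the highest young arrays. The mean was 9.78 ± 0.98 (SD, 6 arrays) for old and 10.24 ± 0.57 (SD, 5 arrays) for young. The difference of -0.46 ± 0.44 (SE) had a 95% interval of -1.38 to 0.47 (limma adjusted p = 0.834; exact permutation p = 0.385). With 1 array left out it ran from -0.65 without old replicate 2 to -0.18 without old replicate 3. Its direction turned within the dim arrays, to 0.34 ± 0.37 (SE, limma adjusted p = 0.883), and with arrays blocked by spike-in brightness, to 0.12 ± 0.42 (adjusted p = 0.992).

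**Figure D3:**
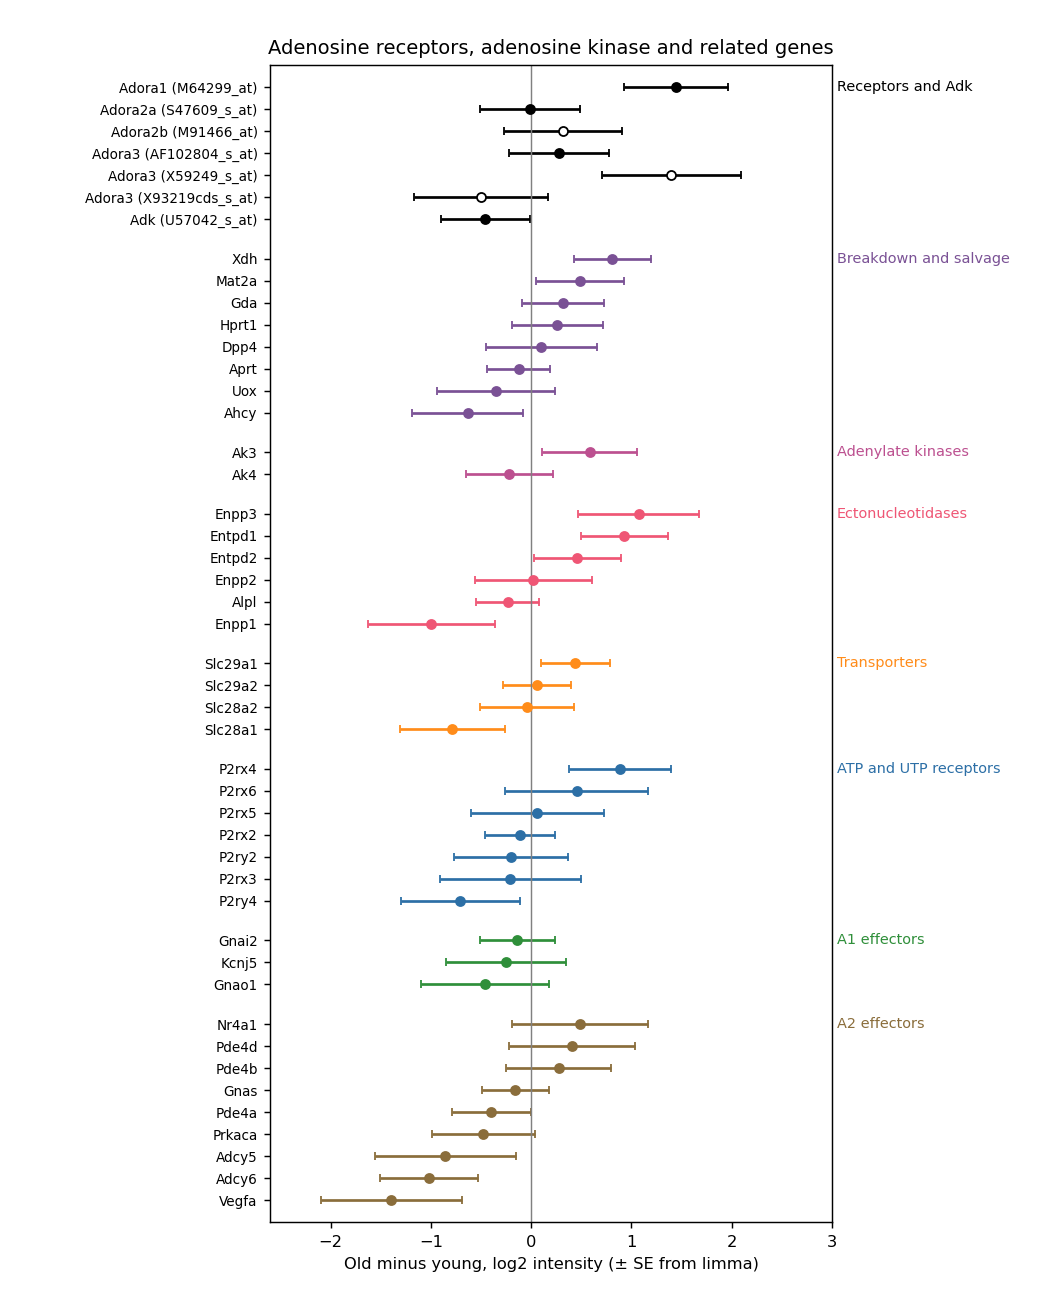
Old minus young log2 difference (± SE from limma) for each receptor and Adk probe set and for the tested genes of the adenosine pathway list, in groups. Open circles are dim probe sets whose SE comes from the fit without the filter. Adora1 lies at 1.45, and the list genes spread on both sides of 0.

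The wider pathway was read from a list of 69 further genes, of which 53 had a probe set and 39 were tested. In old, 18 were higher and 21 lower, with a median difference of -0.11. Over all 3211 tested genes, 49.7% were higher and the median was -0.0036. None of the 39 passed an adjusted p of 0.05, nor did any of the 3211 (0% called). At an unadjusted p under 0.05 there were 2 of 39, against 6.85% of all tested genes.

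Those 2 genes act on purines outside and inside the cell, and both were higher in old. Entpd1, the ectonucleotidase CD39 that takes extracellular ATP and ADP to AMP, was between 331.1 and 867.2 in old (median 474.4) and between 188.4 and 410.2 in young (median 250.9). It differed by 0.93 ± 0.43 (SE, limma unadjusted p = 0.045, adjusted p = 0.648), and the groups overlapped. Xdh, xanthine dehydrogenase, which oxidises hypoxanthine and xanthine to urate, was between 625.6 and 2049.7 in old (median 1022.8) and between 464 and 790.2 in young (median 552.1). It differed by 0.81 ± 0.39 (SE, limma unadjusted p = 0.0498, adjusted p = 0.661), again with overlap.

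In each other group the gene with the smallest p did not pass either. Ak3, a mitochondrial adenylate kinase, differed by 0.58 ± 0.48 (SE), and Ak4 by -0.22 ± 0.43. Among nucleoside transporters, the concentrative Slc28a1 differed by -0.79 ± 0.52, while the equilibrative Slc29a1 and Slc29a2 differed by 0.44 ± 0.34 and 0.06 ± 0.34. P2rx4, an ATP-gated channel, differed by 0.88 ± 0.51, and 3 of 7 tested ATP and UTP receptors were higher in old. On the side of the A1 receptor's effectors all 3 tested genes were lower, each by less than its SE. Of these, Gnao1, an inhibitory-type G protein alpha subunit, had the smallest p and differed by -0.46 ± 0.64. Kcnj5, a subunit of the acetylcholine- and adenosine-gated potassium channel, differed by -0.25 ± 0.60, and Gnai2, an inhibitory G protein alpha subunit, by -0.14 ± 0.37. Effectors of the A2 receptors were higher in 3 and lower in 6 of 9 tested genes. Adcy6, a main adenylyl cyclase of heart muscle, was between 92 and 623.7 in old (median 290.9) and between 401.8 and 699.4 in young (median 517.7), a difference of -1.02 ± 0.49 (SE, limma unadjusted p = 0.0511, adjusted p = 0.661).

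The genes whose levels ran most like each member over the 11 arrays were taken among 4316 tested probe sets of other named genes, as a description. For Adora1 these were S100a4, a calcium-binding protein (Pearson's r = 0.91, Spearman's rho = 0.87), Rpl3, a ribosomal protein (0.89 and 0.88), and Pmepa1 (0.86 and 0.91). These 3 were also higher in old, by 0.99, 1.19 and 0.91, so the difference between groups can carry part of the correlations. Adk ran most like Sord, sorbitol dehydrogenase (0.97 and 0.92), Eif4a2, a translation factor (0.92 and 0.95), and Pln, phospholamban (0.90 and 0.87). For Adora2a they were Krt18, Ubxn1 and Tmem79, with r of 0.95, 0.95 and 0.94, values that old replicate 6 can carry since it stands apart there. Adora3 (AF102804_s_at) ran most like Slc52a3, Mettl7b and Sys1, with r of 0.86, 0.85 and 0.84. Each is among the highest of 4316 correlations over the same 11 arrays.

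**Figure D4:**
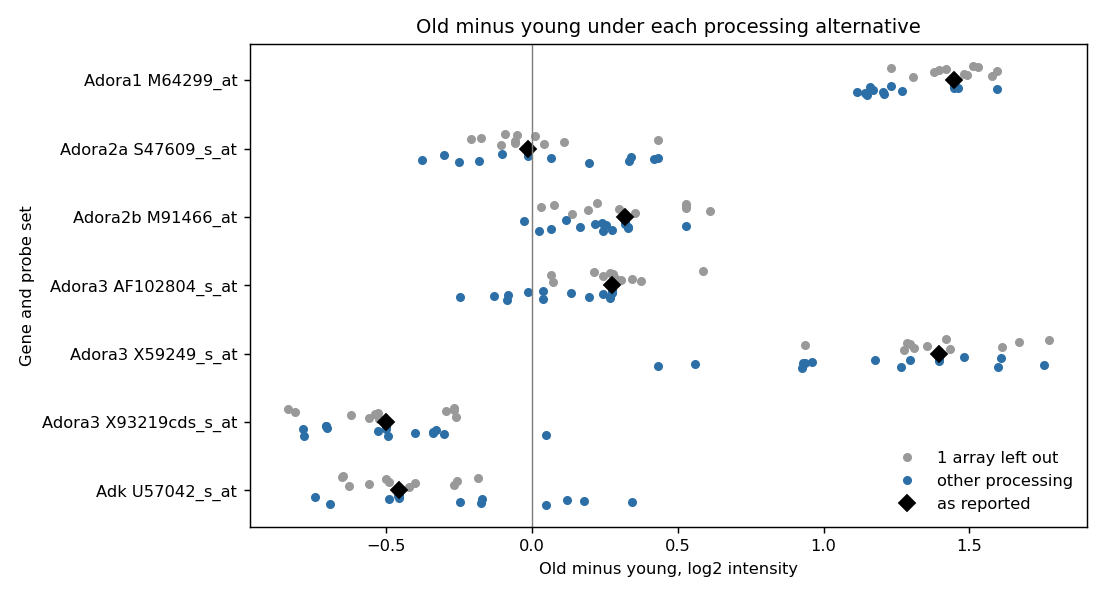
Old minus young log2 difference of each probe set as reported (diamond), with each array left out in turn (grey) and under the other processing alternatives (blue). Adora1 stays between 1.12 and 1.59, and Adora3 (X59249_s_at) stays above 0. Each other probe set changes sign in at least 1 alternative. The ratio to the yeast and mouse controls, on which Adora1 differed by 0.35, is not among the alternatives. That ratio lowers the differences of all probe sets alike.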

How the data were processed

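The authors' deposited table holds 1 linear intensity per probe set and array. The software behind it, any background correction and any detection calls are unknown here. The values had been scaled per array to trimmed means near 500, so changes are relative to the other transcripts. Intensities were raised to the 20th percentile (47.4) and put on the log2 scale. Control probe sets (59) and those with a mean under the 40th percentile were dropped, leaving 5244, of which 4 belonged to the genes described. Old and young were compared in limma 3.58.1 under R 4.3.3, using the trend option of eBayes and a Benjamini-Hochberg threshold of 0.05. Every probe set, dim ones included, was also tested by an exact two-sided permutation test of the difference in means over all splits of the arrays, adjusted over 8740. List genes with more than 1 tested probe set were represented by the brightest.

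Symbols came from GEO's platform annotation, and probe sets with several different symbols were left unnamed. Named genes were every member, list genes with an unadjusted p under 0.05, the smallest p of each list group, and the 3 genes most like each member. Ak4, Slc29a1, Slc29a2, Kcnj5, Gnai2 and the single cell type markers were named after their values were seen. Genes, lists and tests were chosen with earlier results of these data known. The comparisons with yeast and mouse controls were added later. The scripts were tested on simulated data. Old and young arrays were not paired by replicate number, and the labels do not say whether equal numbers mark arrays handled together. The deviations of same-numbered arrays correlated at -0.25 to 0.25, which does not settle it. The number of arrays limits the precision, with a median SE of 0.56.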

Additional observations from a re-analysis of the deposited data

Results flagged for a closer look

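Adora2a (S47609_s_at) read 6.95 on the log2 scale in old replicate 6, and its gap to the next old array took 0.657 of the group's range, above the 95% limit of Dixon's test for 6 arrays. Adora3 (X93219cds_s_at) read 8.19 in young replicate 3, with a gap of 0.739 of the range, above the limit for 5 arrays. Tested were 18 groups, and chance flags about 1 in 20.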

How the results depend on the processing

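No receptor, Adk or list probe set passed an adjusted p of 0.05 in any limma fit that tested it. Adora1, Adora2a, Adora3 (AF102804_s_at) and Adk were tested in each fit, Adora2b and Adora3 (X59249_s_at) only in the fit without a filter, and Adora3 (X93219cds_s_at) only in some. Over all probe sets the count was 0 to 2 with 1 array left out (2 without old replicate 5), 5 among the bright arrays alone and 1 among the dim ones, and 0 otherwise. Adora1 kept its direction in 26 of 26 alternatives, from 1.12 to 1.59. It was 1.23 with quantile normalization and 1.16 with median centring. Its limma adjusted p was 0.162 to 0.97, leaving aside the bright arrays, which hold 1 young array. The ratio to the yeast and mouse controls is not among the 26, and there the difference was 0.35 (exact permutation p = 0.519). That ratio lowers the difference of every probe set by the same amount. With the replicate block, over replicates 1 to 5, the difference of Adora1 was 1.59 ± 0.55 (SE, limma adjusted p = 0.532). The main fit made no call that a block could have ended. Adora2a turned to 0.34 with array weights, 0.43 with the replicate block, 0.066 with arrays blocked by spike-in brightness, 0.42 with the spike-in level as a covariate, 0.33 among dim arrays and 0.19 with the yeast and mouse control level as a covariate, and was -0.21 to 0.43 with 1 array left out. Adora3 (AF102804_s_at) turned to -0.013 with median centring, and to -0.080, -0.13, -0.25 and -0.087 with the spike-in block, the spike-in covariate, the dim arrays and the control covariate. Adk turned to 0.12, 0.18, 0.34 and 0.050 under the same 4 settings. Adora2b turned to -0.026 with a floor of 1, and Adora3 (X93219cds_s_at) to 0.050 without the arrays of high GAPDH ratio. The replicate block left out old replicate 6, and its differences equal those without that array (0.43 for Adora2a, 1.59 for Adora1). Beyond this, the cause of the turns was not tested. Adora3 (X59249_s_at) stayed higher in old, from 0.43 to 1.77. The list median ran from -0.40 to 0.060.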
